A study of Mus musculus with 10 samples.

Results

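The genes described here encode the corepressor machinery that the transcription factor KLF3 is known to work with. They are Ctbp1, Ctbp2, Fhl3, Hdac1, Hdac2, Kdm1a, Rcor1, Wiz, Ehmt1 and Ehmt2, chosen by name: 10 of the 23309 genes in the authors' RNA table, with every peak that the authors assigned to them as nearest start site. All 10 were tested by the authors, as were 9619 genes in all. RNA came from 2 groups of 3 libraries each. J2E is an immortalised mouse fetal liver erythroid line without a transgene. Its first and second libraries came from cells given tamoxifen (200 nM 4-hydroxytamoxifen), and the third from cells given the ethanol vehicle. J2E-KLF3-ER is J2E carrying KLF3 fused to an estrogen receptor domain, with 1 library each from clone A, clone C and clone E, all given tamoxifen. In both groups newly made RNA was labelled with 500 µM 4-thiouridine (4sU) for 30 minutes. Binding comes from 1 pooled KLF3 library (J2E-KLF3-ER clone C, estrogen receptor antibody) and 1 pooled KLF1 library (K1-ER clones A and C, erythroblasts that lack KLF1 and carry KLF1-ER, KLF1 antibody), each with an input library and 3 hours of tamoxifen. The promoter that drives each fusion is not given in the sources used here.

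KLF3 is a zinc finger factor of the Krüppel-like family that binds CACCC-type DNA and mostly represses. It carries a short motif that docks onto the C-terminal binding proteins CtBP1 and CtBP2, and these bring in enzymes that strip active marks from histones or add repressive ones. In erythroid cells KLF3 is known to oppose KLF1, the activator of the same family, at shared CACCC elements.

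The RNA table gives 1 pooled FPKM value per group (read fragments corrected for transcript length and sequencing depth), so the depth of each library is unknown and no error can be set beside a level. The erythroid markers took up 11 tested rows, some of which join near-identical globin genes, and in the authors' deposited table their levels sum to 636 FPKM for J2E and 466 FPKM for J2E-KLF3-ER, with 3 of them called as lower (Epor, Klf1 and Slc4a1). The 5 megakaryocyte markers summed to 166 and 187 FPKM, almost all from Pf4, Itga2b and Gp1ba, and none of the 3 tested was called. The 5 myeloid markers summed to 30.6 and 23.6 FPKM, the 4 mast cell markers to 1.96 and 1.17 FPKM (Mcpt8 and Fcer1a listed at 0 in both groups), and the 4 lymphoid markers to 1.05 and 0.812 FPKM. The part of these differences in the members' values was not tested. Fewer cells of a type and less RNA per cell cannot be told apart in such bulk samples. Activation of the fusion and differences between the clones and J2E cannot be told apart, since every J2E-KLF3-ER library had tamoxifen. The drug itself was shared by both groups except in the third J2E library.

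The first question was how much of each corepressor transcript these cells make. Every member was transcribed in both lines, with J2E levels between 13.7 and 41.1 FPKM by the authors' deposited table. The median member stood at 27.2 FPKM in J2E and 23.4 FPKM in J2E-KLF3-ER, where the median tested gene stood at 12.4 and 12.6 FPKM. From the highest to the lowest level the order in J2E was Ctbp1, Ctbp2, Rcor1, Kdm1a, Ehmt1, Fhl3, Ehmt2, Wiz, Hdac2 and Hdac1. J2E-KLF3-ER had the same order. Whether neighbours in it differ beyond the spread between libraries cannot be told from pooled values. FPKM is scaled by transcript length, and in 4sU-RNA it reflects newly made transcript rather than the whole pool. Whether that scaling makes levels of different genes comparable here was not tested. The order and the ratios between genes are therefore those of the listed FPKM values only.

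The docking proteins led. Ctbp1, one of the pair of dehydrogenase-like corepressors that KLF3 contacts directly, is listed in the authors' deposited table at 41.1 FPKM for J2E and 34.7 FPKM for J2E-KLF3-ER (log2 fold change -0.24, p = 0.161, q = 0.535). At 15.6% below the J2E level, this was the largest difference among the members. For its paralog Ctbp2 the authors' deposited table gives 35.8 and 33.0 FPKM in the same order (log2 fold change -0.12, q = 0.813). The ratio of Ctbp1 to Ctbp2 was 1.15 in J2E and 1.05 in J2E-KLF3-ER, so both lines made the pair at similar levels. Fhl3, a LIM-domain protein that binds KLF3 and takes part in repression, had 23.3 and 20.1 FPKM (authors' deposited table, log2 fold change -0.21, q = 0.687).

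The demethylase and deacetylase arm held the lowest and some of the highest members. Kdm1a (LSD1), which removes methyl groups from lysine of histone H3, had 31.2 FPKM in J2E and 27.9 FPKM with the fusion (authors' deposited table, log2 fold change -0.16, q = 0.703). Rcor1 (CoREST), the scaffold that holds LSD1 and the deacetylases together, had 32.2 and 31.0 FPKM (authors' deposited table, log2 fold change -0.057, q = 0.923). The scaffold and its demethylase thus lay close together, at an Rcor1 to Kdm1a ratio of 1.03 in J2E and 1.11 in J2E-KLF3-ER. Hdac1 and Hdac2, the deacetylases of this complex and of others, were the lowest members. For Hdac2 the authors' deposited table gives 15.2 FPKM in both lines (log2 fold change -0.0015, q = 0.996). Hdac1 had 13.7 and 12.7 FPKM (authors' deposited table, log2 fold change -0.11, q = 0.884). RefSeq lists a pseudogene name, Hdac1-ps, among the synonyms of Hdac1, so its reads could be split with a near-identical copy and its values are uncertain.

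The histone methyltransferase arm held the only member with a higher value in J2E-KLF3-ER. Ehmt1 (GLP) and Ehmt2 (G9a), partner enzymes that methylate lysine of histone H3 and act as a heterodimer, had 31.1 against 26.8 FPKM and 22.5 against 19.97 FPKM (authors' deposited table, J2E first). Their log2 fold changes were -0.22 (q = 0.572) and -0.17 (q = 0.697), and the ratio of Ehmt1 to Ehmt2 was 1.38 in J2E and 1.34 in J2E-KLF3-ER. Wiz, the zinc finger protein that tethers this pair to CtBP, had 16.7 FPKM in J2E and 19.2 FPKM with the fusion (authors' deposited table, log2 fold change 0.20, q = 0.644). The ratio of Ehmt1 to Wiz was 1.86 in J2E and 1.39 in J2E-KLF3-ER, a difference that was not tested.

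**Figure D1:**
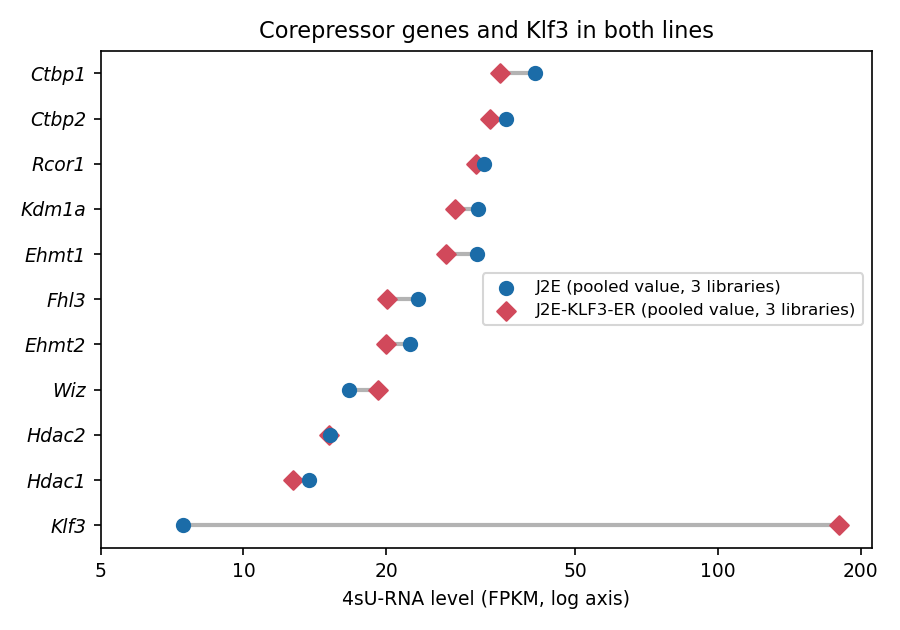
Levels of the 10 corepressor genes and of Klf3 in 4sU-RNA, in FPKM on a log axis. Each point is 1 pooled value of 3 libraries per line, with no error available, and the members keep their order in both lines while Klf3 goes from 7.46 to 180 FPKM.

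Klf3 itself passed from below to above its corepressors. By the authors' deposited table it stood at 7.46 FPKM in J2E, under all 10 members, and at 180 FPKM in J2E-KLF3-ER, over all 10. In J2E the level of Ctbp1 was 5.52 times that of Klf3 and that of Ctbp2 was 4.80 times. In J2E-KLF3-ER the level of Klf3 was 5.18 times that of Ctbp1, 5.45 times that of Ctbp2 and 14.1 times that of Hdac1. The Klf3 row counts reads from the transgene together with those from the endogenous locus, and the ratio of transcripts is not that of proteins.

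The second question was whether any corepressor gene changed between the lines. None of the 10 was called at the authors' q below 0.05, where 2.72% of the 9619 tested genes were (1.9% as lower and 0.821% as higher in J2E-KLF3-ER). The tool behind the authors' test is not given in the sources used here. Their unadjusted p-values ran from 0.161 for Ctbp1 to 0.991 for Hdac2, so none lay below 0.05, against 15.4% of tested genes, and no other test could be run on pooled values. In sign, 9 members had a lower value in J2E-KLF3-ER and 1 a higher value, while 46.5% of tested genes with a finite fold change had a lower value. The median log2 fold change was -0.14 over the members and 0.027 over the tested genes. In size, the median was 0.17 for the members and 0.22 for tested genes, and 54.6% of tested genes changed by no more than the 0.24 of Ctbp1.

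How small a change could have been called can be read from genes of like level. Among the 3218 tested genes with a mean FPKM from 13.2 to 37.9, the range of the members, 84 (2.61%) were called, and the smallest called change was 0.53 on the log2 scale, a 1.45-fold difference. All 10 members lay below that size. That size is not a limit above which changes were called, since the median called change in this range was 0.81. Over all tested genes, only 17 of 190 with a log2 fold change from -0.7 to -0.6 were called. From 0.6 to 0.7 it was 11 of 148. The missing calls therefore do not show that the members were alike in both lines. No member changed sign with the scalings tried: after subtracting the median of tested genes on each chromosome, the values ran from -0.27 for Ehmt2 to 0.098 for Wiz.

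**Figure D2:**
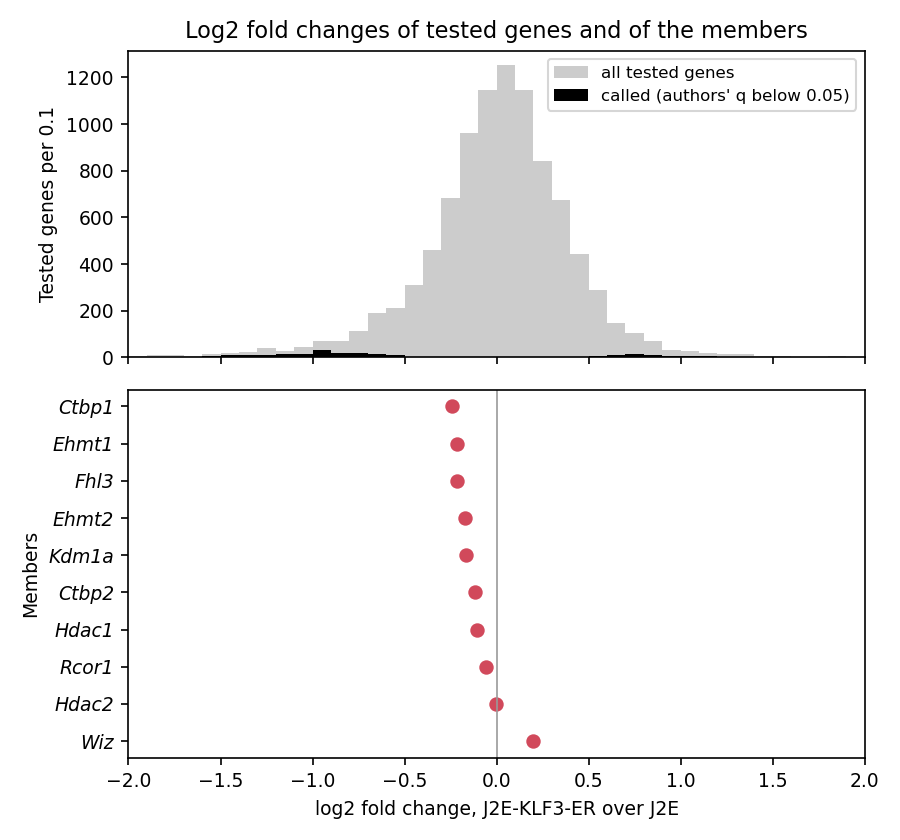
Upper plot: number of tested genes per 0.1 of log2 fold change (grey) and of called genes (black), cut at 2 in size. Lower plot: the same measure for each member, where 9 of 10 lie at or left of 0 and none reaches 0.25 in size.

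The third question was whether KLF3 and KLF1 bind at the genes of this machinery. KLF3 peaks were assigned to 4 members, Ctbp1, Ctbp2, Rcor1 and Ehmt2, where 32.3% of tested genes have one. KLF1 peaks were assigned to 3, Ctbp1, Ctbp2 and Fhl3, where 19.1% of tested genes have one. Both factors met at the 2 CtBP genes (13% of tested genes have both), and 5 members had neither (61.6% of tested genes). With so few genes these counts do not stand apart from the background. Each list comes from 1 pooled library with its own antibody and cell line, so no replicate test of binding exists. Coordinates are on mm9, and the enrichment per peak is the authors' value, used to place a peak within its own list.

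Ctbp1, on chromosome 5 from 33590372 to 33617653 on the minus strand, held a site of both factors in an intron close to its start. The KLF3 peak (33616653 to 33616920, enrichment 5.57, rank 3821 of 4579) had its summit 864 bp into the gene. It lay inside a wider KLF1 interval (33616144 to 33616958) that is listed with a pair of summits, at 875 bp (enrichment 16.2, rank 814 of 3800) and 1192 bp (15.8). The nearer KLF1 summit and the KLF3 summit were 11 bp apart. A further KLF1 peak without KLF3 lay at the promoter (33617769 to 33618045, enrichment 12.2), its summit 255 bp upstream of the start.

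Ctbp2, on chromosome 7 from 140178694 to 140315166 on the minus strand, had its shared site at the promoter. A KLF1 interval of 1044 bp (140314942 to 140315985) is listed with 3 summits: 89 bp into the gene (enrichment 17.3, rank 711), 233 bp upstream (5.37) and 603 bp upstream (9.20). The KLF3 peak (140315677 to 140315878, enrichment 7.90, rank 2318) overlapped its upstream end, with the summit 628 bp from the start and 25 bp from the nearest KLF1 summit. The highest KLF1 summit of this promoter was 717 bp away from the KLF3 summit. Another KLF1 peak (140282892 to 140283173, enrichment 8.01) lay in an intron 32143 bp into the gene and had no KLF3 peak on it.

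The other bound members carried 1 factor each. Ehmt2, on chromosome 17 from 35035444 to 35050992, had the highest KLF3 peak of the set (35035122 to 35035388, enrichment 8.57, rank 1961), with its summit 180 bp upstream of the start and no KLF1 peak. Rcor1, on chromosome 12 from 112278009 to 112351597, had a weak KLF3 peak (112276538 to 112276778, enrichment 5.48, rank 3880) 1403 bp upstream, annotated as distal. Fhl3, on chromosome 4 from 124377943 to 124385855, had a KLF1 peak in an intron (124378097 to 124378357, enrichment 6.69, rank 3123) 299 bp into the gene. A stronger pair of peaks lay just past the other end of Fhl3, 405 bp outside for KLF3 (124386260 to 124386570, enrichment 15.3) and 350 bp outside for KLF1 (124386205 to 124386647, enrichment 40.2). The authors assigned that site to the neighbouring gene Sf3a3, whose start is 5688 bp from the KLF3 summit, so it is not counted for Fhl3.

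Within their list the KLF3 peaks of these genes stood at middle or low ranks. Of the 4 KLF3 peaks only that of Ehmt2 lay above the list's median enrichment of 7.94, and of the 8 listed KLF1 peaks 4 lay above the KLF1 median of 9.72, all at Ctbp1 or Ctbp2. By position, 3 of the 4 KLF3 peaks had their summit within 1 kb of the start (81.2% of all KLF3 peaks do) and so did 6 of the 8 KLF1 peaks (41% of all). Of the 4 KLF3 peaks 2 shared 1 bp or more with a KLF1 peak, where 34% of all KLF3 peaks do, and 5 of the 8 listed KLF1 peaks overlapped a KLF3 peak, where 39.3% of all KLF1 peaks do. The 8 listed KLF1 peaks are 5 distinct intervals, some with several summits, and the 5 that overlapped come from 2 of these, 1 at Ctbp1 and 1 at Ctbp2. The KLF1 list also marks whether the nearest gene differed between K1 and K1-ER cells, and all 8 peaks read no, as do 80.5% of that list. The mark belongs to the gene, so the 8 peaks only repeat the calls for Ctbp1, Ctbp2 and Fhl3.

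**Figure D3:**
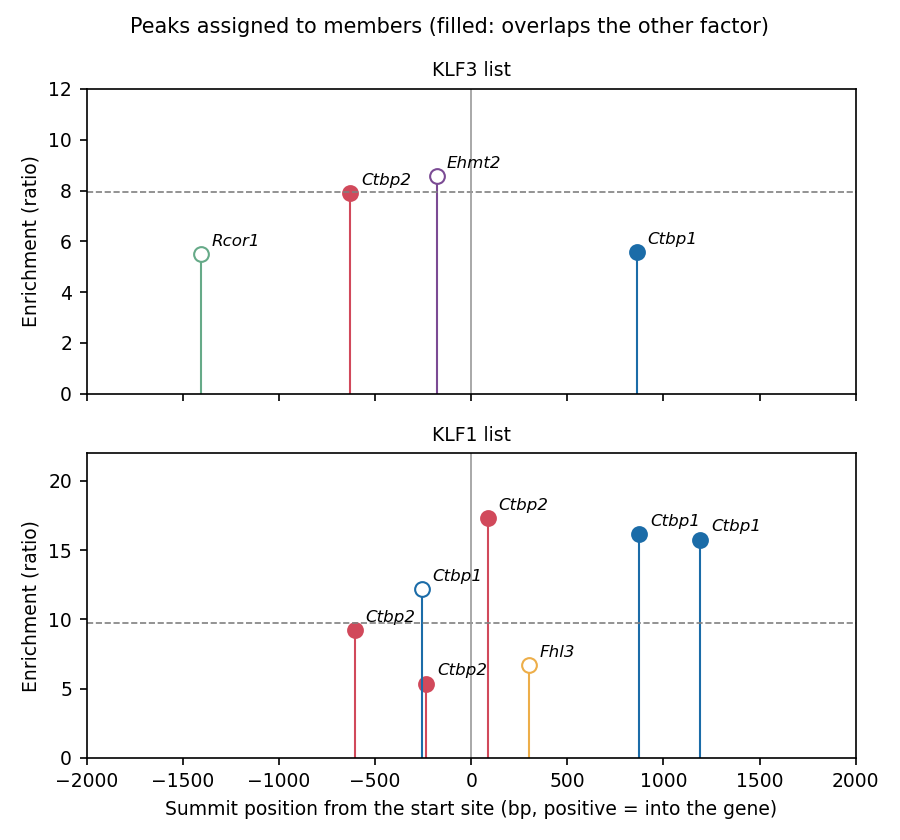
Peaks assigned to the members by summit position from the start site (bp) and the authors' enrichment ratio, KLF3 above and KLF1 below, each with its list's median as a dashed line. Filled points overlap a peak of the other factor, and the intron peak of Ctbp2 at 32143 bp is outside the window.

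Hdac1, Hdac2, Kdm1a, Wiz and Ehmt1 had no peak of either factor, nor one within 5 kb of their loci. The distance from the locus to the nearest listed peak differed widely. For Ehmt1 it was 15.4 kb, to a KLF1 peak assigned to Arrdc1, and for Hdac1 it was 13.8 kb, to a KLF1 peak assigned to Lck. For Wiz it was 32.3 kb, to a KLF3 peak assigned to Akap8, with the nearest KLF1 peak 1210 kb away. For Kdm1a both factors were nearest at Hnrnpr, 239 kb away. Hdac2 was the most remote, at 1353 kb from a KLF1 peak and 2132 kb from a KLF3 peak. Members with and without a peak overlapped in RNA: log2 fold changes ran from -0.24 to -0.057 in the 5 with a peak and from -0.22 to 0.20 in the 5 without.

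The promoter sequence of bound and unbound members was then set side by side. RefSeq promoters on GRCm38.p6 matched 9 of the 10 members, in 14 windows, of which the 250 bases before each start were searched on both strands for CCNCNCCC, a Krüppel-like factor consensus that also takes in GC boxes of SP factors. A match was present in 45.9% of all 32851 promoter windows of this length. It was present in 8 of the 14 windows, from 6 members: Ctbp1, Fhl3, Rcor1, Wiz, Ehmt1 and Ehmt2. The shorter core CACCC, part of some of the same matches, was in 52.0% of all windows and in 9 of the 14. The windows below are those of Ctbp1, with a promoter peak of KLF1 only, and of Ehmt2, with a promoter peak of KLF3 only. The KLF3 peak of Ctbp1 lies in an intron, 864 bp into the gene, and so outside its window. Also shown are those of Wiz and Kdm1a, which have no peak but differ in their matches. For Ehmt2 and Wiz, which have several windows, the one nearest the outer end of the gene is shown. They read 5′ to 3′ on the gene's strand, up to the base before the start, with capitals marking CCNCNCCC or its reverse complement.
Ctbp1 promoter: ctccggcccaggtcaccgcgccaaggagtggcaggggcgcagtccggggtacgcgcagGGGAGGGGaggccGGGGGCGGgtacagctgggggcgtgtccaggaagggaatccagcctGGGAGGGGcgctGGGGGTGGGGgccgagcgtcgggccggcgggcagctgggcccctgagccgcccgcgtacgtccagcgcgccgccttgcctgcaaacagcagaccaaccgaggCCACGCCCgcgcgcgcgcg
Ehmt2 promoter: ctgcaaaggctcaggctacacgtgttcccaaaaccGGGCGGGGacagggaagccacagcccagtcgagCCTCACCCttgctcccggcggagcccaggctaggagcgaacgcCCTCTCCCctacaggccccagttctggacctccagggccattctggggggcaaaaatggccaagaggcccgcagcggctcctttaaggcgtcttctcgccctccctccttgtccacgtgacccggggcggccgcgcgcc
Wiz promoter: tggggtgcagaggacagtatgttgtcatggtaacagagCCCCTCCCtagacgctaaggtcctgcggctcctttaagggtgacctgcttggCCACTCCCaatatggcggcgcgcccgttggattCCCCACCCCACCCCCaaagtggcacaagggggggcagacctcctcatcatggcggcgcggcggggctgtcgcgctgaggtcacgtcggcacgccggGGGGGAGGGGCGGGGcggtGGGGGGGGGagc
Kdm1a promoter: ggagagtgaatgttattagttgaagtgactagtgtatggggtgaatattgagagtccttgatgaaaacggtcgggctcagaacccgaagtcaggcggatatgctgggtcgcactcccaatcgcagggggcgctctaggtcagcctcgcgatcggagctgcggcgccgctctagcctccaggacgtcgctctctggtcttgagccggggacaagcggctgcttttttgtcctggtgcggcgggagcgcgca

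The Ctbp1 window (chr5:33275005-33275254, minus strand) holds 6 matches, starting from 192 to 19 bases before the start, and 77.6% of its bases are G or C. The Ehmt2 window (chr17:34898224-34898473, plus strand) holds 3, starting 215, 182 and 139 bases before the start. On mm9 the KLF3 summit of Ehmt2 lay 180 bp upstream of the authors' start, but positions on the 2 builds were not matched. Wiz (chr17:32389407-32389656, minus strand) holds 10 matches with no peak of either factor. Kdm1a (chr4:136602724-136602973, minus strand) holds none, though it has 1 match of the shorter CACCC. In the windows shown, then, matches stood both with and without a listed peak. The windows not shown hold 8 matches for Ehmt2, and 6, 0 and 0 for Wiz. The 2 windows of Ctbp2 hold no match, but their starts lie 42149 and 108762 bp inside the RefSeq gene, so they are not the upstream end where its peaks were listed on mm9.

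The last question was whether the wider machinery changed. Of 35 other genes of the pathway, 28 were tested, 1 fell and none rose, where 2.72% of tested genes were called. An unadjusted p below 0.05 was reached by 3 of the 28, where 15.4% of tested genes reached it. The gene that fell was Gfi1b, an erythroid repressor that recruits LSD1 and CoREST, with 40.1 FPKM in J2E and 23.3 FPKM in J2E-KLF3-ER (authors' deposited table, log2 fold change -0.78, q = 0.00408). Gfi1b had no listed KLF3 peak and 1 listed KLF1 peak, and the part of either factor in its fall was not tested. It belongs to the CtBP and CoREST partners, where 13 of 15 were tested with a median log2 fold change of -0.041. Gse1, a subunit of such complexes and the highest of that group, had 60.7 and 54.7 FPKM (authors' deposited table, log2 fold change -0.15, q = 0.695).

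All 9 partners of G9a and GLP were tested and none was called, nor did any reach an unadjusted p below 0.05. In sign, 7 had higher values in J2E-KLF3-ER, where 53.5% of tested genes did, and the median log2 fold change was 0.13. Its highest members were Cbx3, a heterochromatin protein that reads methylated histone H3 (log2 fold change 0.23, q = 0.545), and the corepressor gene Trim28 (0.16, q = 0.691), both from the authors' deposited table. Among relatives of the members only Hdac3 and Hdac8 were tested of 5, with log2 fold changes of 0.56 (q = 0.332) and 0.073 (q = 0.947) from the authors' deposited table. Of the SUMO enzymes and related CtBP-binding factors 4 of 6 were tested and none was called. By the authors' deposited table the log2 fold change was 0.15 for the SUMO gene Sumo2 (q = 0.773). Klf8 and Klf12, which also bind CtBP, were not tested by the authors.

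**Figure D4:**
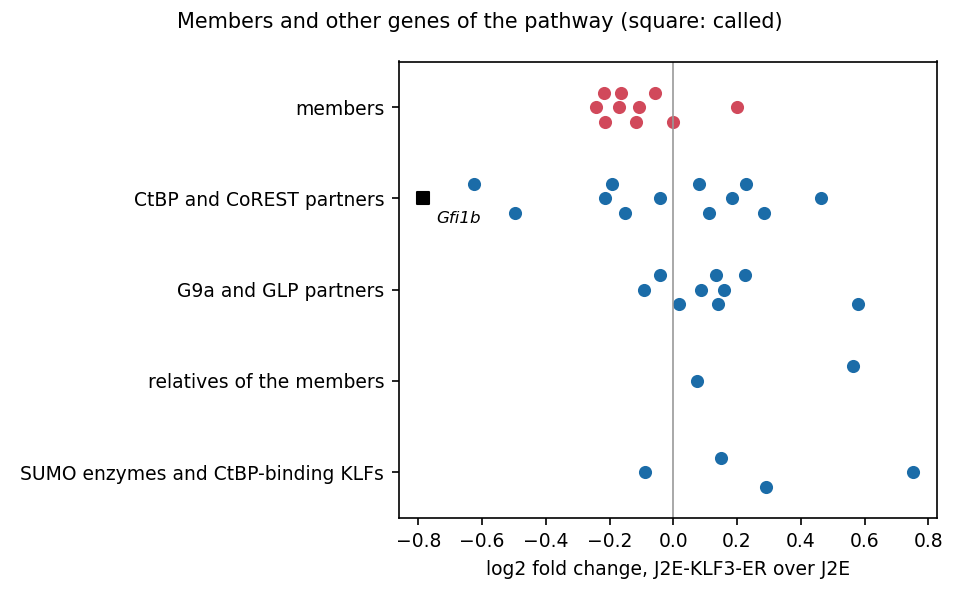
Log2 fold changes of the 10 members and of the 28 other tested genes of the pathway by group, J2E-KLF3-ER over J2E. Points are offset vertically for legibility, the square marks Gfi1b at -0.78 as the only called gene, and the members span -0.24 to 0.20.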

How the data were processed

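The authors' deposited RNA table gives, per the file headers, FPKM as 1 pooled value per group, their log2 fold change (J2E-KLF3-ER over J2E), and the p-value, q-value and statistic (a score) of the authors' test. For each peak the authors deposited its enrichment ratio, summit, annotation and nearest start site. The submitters' processing notes name mm9 as build and TopHat2 2.0.10, MACS2 and MACS 1.4.2 as tools, with no roles given. Per the labels' protocols, each chromatin library pooled 3 replicates, fixed in 0.4% formaldehyde. Whether the first and second J2E libraries came from separate cultures is not stated, so the spread between them may be technical only. The third J2E library had the vehicle, and the J2E-KLF3-ER libraries came from different clones. The spread behind the p-values therefore also holds differences of treatment and clone.

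The 93 blank rows were dropped, leaving 23309 genes, 9619 tested. The deposited q equals a Benjamini-Hochberg adjustment over tested genes within 5.26e-07. Called means q below 0.05. Gene starts in the RNA table count from 0 and were raised by 1: the raised start equals the start site behind the peak distances for 89.8% of 4225 peaks at plus-strand genes. Distances were turned so that positive is into the gene. Peaks were assigned as the authors did. Per-sample columns left unused number 0.

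Named by rule are all members, Klf3, called genes of the pathway list with the 2 highest per group, and genes that hold a neighbouring peak. Named outside this rule are the cell type markers, Klf8, Klf12, Rcor2 and Zfp217. The values of 1 gene under this rule are not reported here. No gene of like pattern was sought, since 2 pooled values give none. Members and lists were chosen with earlier results of these data known. Python 3.11.15, pandas 2.3.3, NumPy 2.4.6 and matplotlib 3.10.9 were used, and the adjustment, overlap and motif search were tested on simulated data. Alternatives covered thresholds, pseudocounts, scaling, peak height, distance and overlap.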

Additional observations from a re-analysis of the deposited data

How the results depend on the processing

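No paired analysis was possible because the deposited RNA table holds 1 pooled value per line, and for the same reason no replicate could be left out. The count of members called stayed at 0 with the adjustment restricted to tested genes of at least 1 FPKM in both lines. It was also 0 with q below 0.25 or 0.01 and with an unadjusted p below 0.05. Those threshold counts follow from the members' lowest values in the authors' test (q = 0.535, p = 0.161) and are no separate check. The members' median log2 fold change of -0.14 became -0.17 after subtracting the median of tested genes and -0.13 after subtracting that of each chromosome. All 40 recomputed member values kept their sign. Those with pseudocounts of 1 or 0.1 FPKM could not have turned, since the same constant is added to both lines. Only the values from both centrings could have. Members with a KLF3 peak numbered 1 in place of 4 when only peaks at or above the list's median enrichment were used, which leaves fewer peaks by construction. Of the KLF3 peaks, 1 in place of 3 lay within 500 bp of a start. The other counts of peaks stayed within 1.5 times of those reported. Among tested genes of like level, the authors' test called no change under 0.53 on the log2 scale.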

Other observations

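A pair of CoREST complex genes outside the 10 members, Gse1 and Rcor2, is described here from the peak lists. Both were singled out after their values were seen. By number of listed peaks only Gse1 stood out. Rcor2 had fewer of KLF1 than Zfp217, another of the CtBP and CoREST partners, with 6 of KLF1 and 1 of KLF3. Gse1 had more listed peaks than any other gene in both lists, 9 of KLF3 (the next gene has 6) and 13 of KLF1 (the next has 9), and in each list 5 of its peaks overlapped the other factor. Listed peaks can be summits of the same interval, and the distinct intervals of Gse1 were not counted. Its peaks reached 13.96 in enrichment for KLF3 and 28.9 for KLF1, and the farthest lay about 120 kb from its start. Its RNA was not called, as given above.

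Rcor2, the paralog of Rcor1, had 4 listed KLF1 peaks, with enrichments from 6.51 to 24.7, and 1 KLF3 peak (5.66) inside the highest of them, with both summits 2471 bp from the start. The KLF1 summits at 3842 and 3368 bp from the start share an interval (7340232 to 7340989). All 4 KLF1 peaks carry the authors' mark "up" for the nearest gene between K1 and K1-ER cells, whereas every KLF1 peak at the members is marked "no". The mark belongs to the gene, so the 4 peaks repeat a single call for Rcor2. Those at the members repeat the calls for Ctbp1, Ctbp2 and Fhl3. The RNA comparison behind that mark is not analysed here. Rcor2 had 14.1 FPKM in J2E and 17.2 FPKM with the fusion (authors' deposited table, log2 fold change 0.28, q = 0.580).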
